A study of Mus musculus with 48 samples.

Results

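The RNA of 10 genes that mark blood vessel endothelium was followed in the early mouse limb bud after exposure of the dam to cadmium or acetazolamide. The genes are Kdr, Flt1, Tek, Tie1, Eng, Cdh5, Pecam1, Mcam, Cd34 and Gja4. They were taken as the probe sets of the array that name 1 of these symbols and no other gene, which gave 13 of 12488 probe sets and 10 of the 8252 genes measured. The genes were picked with their treated-to-vehicle ratios in view, so their values are a description and carry no test.

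Pregnant mice, whose strain is not stated in the labels, received an intraperitoneal injection on gestation day 9.5. Exposed dams received cadmium sulfate at 4 mg/kg or acetazolamide, a carbonic anhydrase inhibitor, at 400 mg/kg. Each was set against dams given only its vehicle, phosphate-buffered saline (PBS) for cadmium and vegetable oil for acetazolamide, so no vehicle array served both agents. At 3 h or 12 h after injection the right forelimb buds were collected and split with 2% trypsin into ectoderm, the surface epithelium, and mesoderm, the tissue beneath it. By the treatment protocol tissue of several litters went into each RNA sample, while another label calls the extracts non-pooled, and 3 samples per agent or vehicle, tissue and time gave 16 groups and 48 Affymetrix arrays. Whether ectoderm and mesoderm samples came from the same litters is not stated. Spread between arrays is spread between these RNA samples, whatever their make-up.

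The deposited values express each array relative to its own vehicle arrays as a ratio, used here in log2. In every vehicle group, arrays 1 and 2 summed to 2 and array 3 equalled 1 at every probe set, within 3e-07 and 6e-08. The vehicle values are therefore tied to each other, and their SD understates the spread of 3 free samples. No level was kept, so it could not be checked that the separated ectoderm held less endothelial RNA than the mesoderm. In a piece of tissue, more endothelial cells and more RNA per endothelial cell cannot be told apart. Array medians ran from -0.123 to 0.098 in log2 over all probe sets.

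Endothelial cells line vessels, and in the limb bud they form a capillary network within the mesoderm while the ectoderm is avascular. Vascular endothelial growth factors act on them through the receptors Kdr and Flt1, angiopoietins act through Tek with its partner Tie1, and endoglin modifies signals of the TGF-beta family. Endothelial cells hold to each other through VE-cadherin and PECAM-1, and arterial endothelium couples through the connexin that Gja4 encodes.

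The promoters of the 4 members with the largest differences after cadmium are shown first, since these members carry the pattern that follows. Each is 300 bases from RefSeq on GRCm38.p6, from 250 bases before to 50 after the annotated start, and reads along the gene's own strand. Capitals mark GGAAG or its reverse complement CTTCC, a core of the sites bound by ETS factors, a family that includes regulators of endothelial genes. Gja4 lies on the minus strand at chr4:127313990-127314289 and holds the motif 1 time. Tie1 lies on the minus strand at chr4:118489800-118490099 and holds it 7 times. Eng, on the plus strand at chr2:32646345-32646644, holds it 2 times, and Mcam, on the plus strand at chr9:44134408-44134707, holds it 1 time.
Gja4: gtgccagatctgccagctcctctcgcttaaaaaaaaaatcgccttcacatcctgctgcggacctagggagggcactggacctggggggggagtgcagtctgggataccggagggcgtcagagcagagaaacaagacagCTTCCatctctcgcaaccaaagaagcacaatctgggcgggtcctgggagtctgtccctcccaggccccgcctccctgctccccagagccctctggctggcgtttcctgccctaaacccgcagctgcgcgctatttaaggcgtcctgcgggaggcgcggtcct
Tie1: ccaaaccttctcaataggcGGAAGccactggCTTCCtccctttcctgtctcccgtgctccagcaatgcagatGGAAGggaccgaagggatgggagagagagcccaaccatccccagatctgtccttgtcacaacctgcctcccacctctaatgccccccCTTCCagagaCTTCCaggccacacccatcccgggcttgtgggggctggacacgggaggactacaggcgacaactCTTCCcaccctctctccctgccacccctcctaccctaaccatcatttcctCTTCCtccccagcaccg
Eng: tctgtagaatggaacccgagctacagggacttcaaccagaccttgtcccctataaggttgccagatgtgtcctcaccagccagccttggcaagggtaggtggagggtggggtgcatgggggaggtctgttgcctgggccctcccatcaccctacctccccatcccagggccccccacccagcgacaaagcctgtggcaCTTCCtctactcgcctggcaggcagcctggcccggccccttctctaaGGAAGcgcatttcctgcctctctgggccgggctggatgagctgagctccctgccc
Mcam: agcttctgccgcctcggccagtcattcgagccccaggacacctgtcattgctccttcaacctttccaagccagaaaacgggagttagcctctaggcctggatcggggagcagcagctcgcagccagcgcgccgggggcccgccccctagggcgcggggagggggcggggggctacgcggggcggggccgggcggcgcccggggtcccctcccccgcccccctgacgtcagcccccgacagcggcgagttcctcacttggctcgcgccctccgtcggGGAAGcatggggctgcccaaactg

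Promoter sequences were matched for 8 of the 10 members. GGAAG, on either strand, occurred in 7 of these 8 (Cd34, Eng, Tie1, Gja4, Kdr, Flt1 and Mcam) and in 71.1% of all 27025 promoters of the same length. TGCACNC, a core recognised by metal-regulatory transcription factor 1, occurred in 3 of the 8 (Eng, Tek and Gja4) and in 12.4% of all promoters, and its variant TGCGCNC in 1 (Gja4) and in 15.5%. AGATAA, a motif of zinc-finger factors active in blood and endothelium, occurred in 1 (Tek) against 11.4% of all, and ACGTG, the core of the hypoxia response element, in 0 against 19.7%. These motifs were searched on both strands and do not contain one another, and a match describes letters in these windows and no more.

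In mesoderm 12 h after cadmium, part of the endothelial genes stood above PBS, led by Gja4, Tie1, Eng and Cdh5. The arrays of Flt1, Cd34, Kdr, Pecam1 and Tek overlapped with PBS arrays, with differences from 0.19 (Flt1) down to 0.00 (Tek). All 10 had a log2 difference of 0 or more, with a median of 0.23 and a range from 0.00 (Tek) to 0.85 (Gja4). Over all genes the median was 0.01, and 54.4% lay above 0. With each array centred on its own median, the median of the members was 0.22 and Tek, at 0.00, took a negative sign. In 5 members (Tie1, Eng, Gja4, Mcam and Cdh5) all 3 cadmium arrays exceeded all 3 PBS arrays, as they did for 9.8% of all genes. Of those, 3 (Tie1, Eng and Gja4) passed an adjusted p of 0.05 with higher values in limma's fit across all genes, where 1.05% of genes did so and 2.28% passed in either direction. Members were chosen on these same ratios, and nothing is read from either count.

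**Figure D1:**
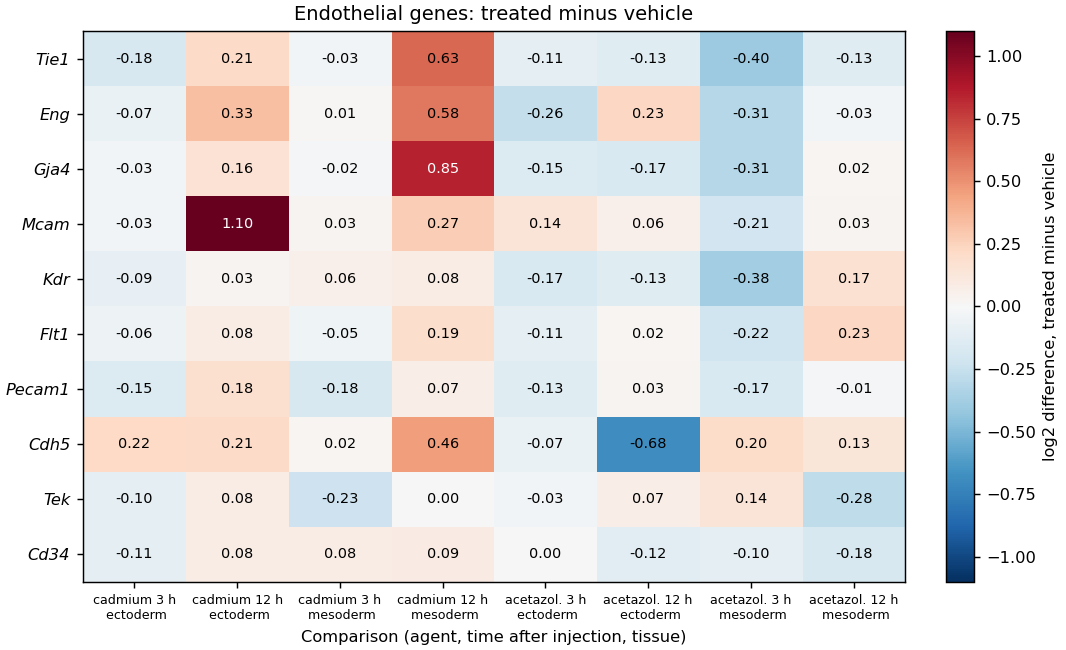
Log2 difference (treated minus vehicle) of the 10 endothelial genes, in rows, for the 8 comparisons of agent, time and tissue, in columns, with the value printed in each cell. The highest values stand at 12 h after cadmium, 1.10 for Mcam in ectoderm and 0.85 for Gja4 in mesoderm, and the lowest is -0.68 for Cdh5 in ectoderm at 12 h after acetazolamide.

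Among the receptors, the Tie pair parted. Tie1, at 4:118471191-118489849 on GRCm38.p6, encodes an orphan receptor that works with Tek. Its log2 ratios were 0.40, 0.75 and 0.66 in the cadmium arrays, against -0.28, 0.20 and 0.00 in the PBS arrays. The lowest cadmium array thus stood above the highest PBS array, and the difference was 0.63 ± 0.12 (SE, n = 3 each), a 1.55-fold higher ratio. Both probe sets of Tie1 lay above 0, with differences of 0.76 and 0.50, and the first of them belongs to a class that can also detect related transcripts. Tek, the angiopoietin receptor, had 0.28, -0.36 and 0.08 in cadmium arrays, against 0.07, -0.07 and 0.00 in PBS arrays. Its cadmium arrays lay on both sides of all PBS arrays, and the difference was 0.00 ± 0.15 (95% interval -0.30 to 0.30).

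The receptors for vascular endothelial growth factor stayed nearer to PBS. Kdr, the main signalling receptor, had 0.06, -0.19 and 0.35 in cadmium arrays, against 0.14, -0.16 and 0.00 in PBS arrays. The groups overlapped, and the difference was 0.08 ± 0.14 (95% interval -0.21 to 0.37). Flt1, which binds the same ligand tightly and limits its access to Kdr, had -0.01, 0.17 and 0.39 in cadmium arrays, against -0.04, 0.04 and 0.00 in PBS arrays. Its lowest cadmium array fell within the PBS range, and the difference was 0.19 ± 0.12. Its 2 probe sets gave 0.30 and 0.07.

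Eng encodes endoglin, a TGF-beta coreceptor of endothelium at 2:32646595-32682669, whose promoter is printed above. Its cadmium arrays read 0.49, 0.45 and 0.79, against -0.21, 0.18 and 0.00 in the PBS arrays, without overlap. The difference was 0.58 ± 0.16 (95% interval 0.26 to 0.90), a 1.50-fold higher ratio.

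Of the adhesion genes Cdh5, Mcam, Pecam1 and Cd34, Cdh5 stood highest in the mesoderm. Cdh5 encodes VE-cadherin, the endothelial adherens junction cadherin, and read 0.48, 0.19 and 0.70 in cadmium arrays, against -0.06, 0.06 and 0.00 in PBS arrays. The difference was 0.46 ± 0.15, 1.37-fold, without overlap between the groups. Mcam encodes the adhesion molecule CD146, found on endothelium, pericytes and other cells, and read 0.13, 0.20 and 0.48 in cadmium arrays, against 0.04, -0.04 and 0.00 in PBS arrays. The difference of 0.27 ± 0.08 was smaller, 1.21-fold, also without overlap.

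The other adhesion genes did not follow. Pecam1, encoding the junctional immunoglobulin-family protein PECAM-1, read 0.17, 0.08 and -0.05 in cadmium arrays, against 0.07, -0.07 and 0.00 in PBS arrays, a difference of 0.07 ± 0.15. Cd34, a sialomucin of vascular and blood progenitor cells, read 0.07, -0.25 and 0.44 in cadmium arrays, against -0.02, 0.00 and 0.00 in PBS arrays, a difference of 0.09 ± 0.11. Cadmium and PBS arrays overlapped in both genes, and the 2 probe sets of Cd34 differed in sign, at 0.23 and -0.04.

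Gja4 encodes a connexin, a gap junction protein of arterial endothelium, at 4:127311420-127314039. Its cadmium arrays read 0.49, 0.79 and 1.27, against -0.04, 0.04 and 0.00 in the PBS arrays. Every cadmium array stood at least as high as 0.49 and no PBS array above 0.04. The difference of 0.85 ± 0.12 (95% interval 0.61 to 1.09), or 1.81-fold, was the largest among the members in mesoderm. In ectoderm at the same time Gja4 differed by 0.16 ± 0.23.

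**Figure D2:**
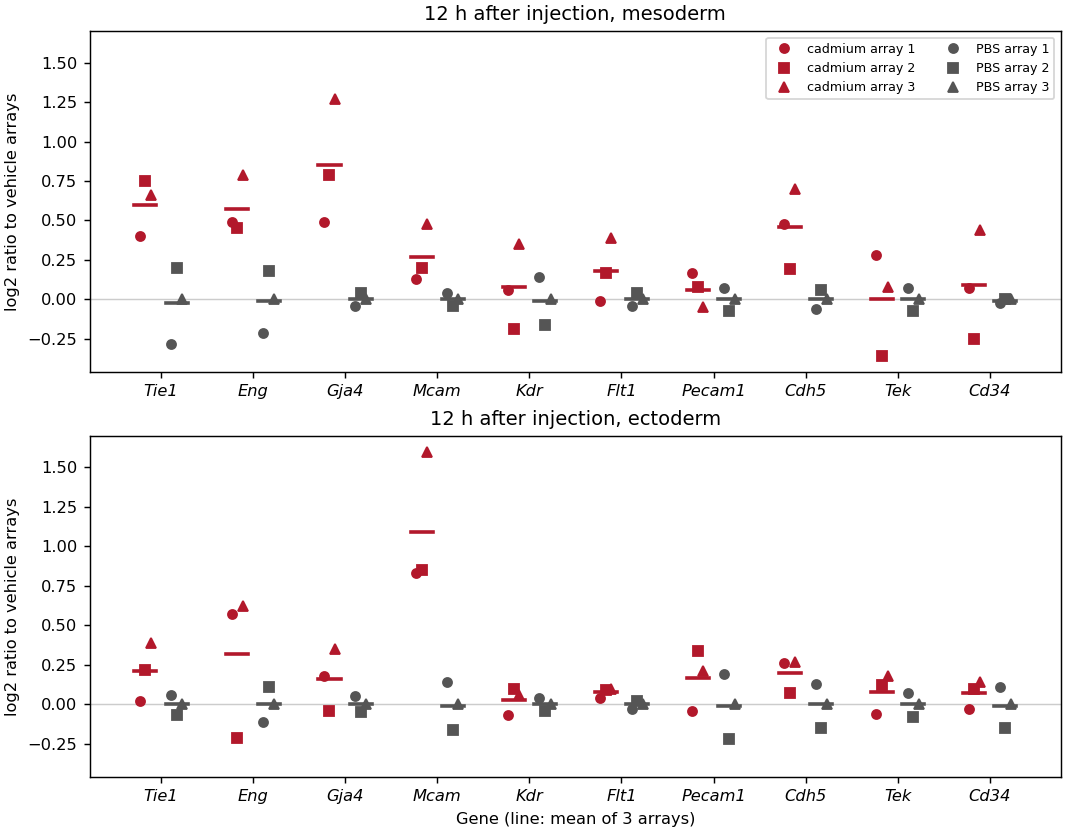
Log2 ratio of each endothelial gene in each array 12 h after cadmium, mesoderm and ectoderm in separate panels, with cadmium arrays left of PBS arrays for each gene. In mesoderm, Tie1, Eng, Gja4, Mcam and Cdh5 show no overlap between cadmium and PBS, and in ectoderm Mcam stands apart at 0.83, 0.85 and 1.60 against at most 0.14 in PBS.

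Cadmium array 3 was the highest of its group for 7 of the 10 members in mesoderm, and it was also high for red blood cell genes. The mean over the 10 members was 0.26, 0.18 and 0.51 in the cadmium arrays, against -0.03, 0.02 and 0.00 in the PBS arrays. The mean over 12 measured red blood cell genes was 0.02, 0.08 and 0.41 in the cadmium arrays, against -0.13, 0.10 and 0.00 in the PBS arrays. In cadmium array 2, Kdr, Tek and Cd34 lay below every PBS array. Whether blood or vessel content of array 3 contributed to the members' values was not tested. Without array 3 of both groups the median of the members was 0.15 and 7 of 10 lay above 0.

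Arrays were left out 1 at a time, except that array 3 of both groups went together, since they share an inferred denominator. This moved Gja4 between 0.64 and 1.0, Tie1 between 0.50 and 0.77, Eng between 0.48 and 0.73 and Cdh5 between 0.34 and 0.57. The same step moved Mcam between 0.17 and 0.32, and it gave Kdr, Tek and Cd34 values on both sides of 0. Without array 3, or without cadmium array 2, Tie1 and Gja4 passed the adjusted threshold and Eng did not. Eng also lost its call without PBS array 1, where Mcam gained one, as Mcam did without cadmium array 1, and Cdh5 gained one with array numbers as blocks. Without precision weights for the comparisons only Gja4 passed it, and in a fit to these 6 arrays alone none of the 10 did. Members were chosen on these ratios, so nothing is read from these calls either.

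In ectoderm 12 h after cadmium, all 10 members again lay above 0, with a median of 0.17, while 57.6% of all genes did and their median was 0.03. The range ran from 0.03 (Kdr) to 1.10 (Mcam), and the second highest was Eng at 0.33. Mcam and Flt1 had no overlap between cadmium and PBS arrays, which held for 4.33% of all genes in this direction, and 0 members separated downward (5.72%). Of the members Mcam alone passed the adjusted threshold with a higher value, and it was the 1 gene of all 8252 that did (0.0121%). Members were chosen on these same ratios, and nothing is read from this call.

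Mcam read 0.83, 0.85 and 1.60 in the cadmium arrays, against 0.14, -0.16 and 0.00 in the PBS arrays. Its difference was 1.10 ± 0.16 (95% interval 0.78 to 1.42), or 2.14-fold. Leaving out arrays moved it from 0.85, without array 3 of both groups, to 1.26. The gene lies at 9:44134658-44142727, and its promoter, printed above, holds GGAAG 1 time. Without array 3, with array numbers as blocks or in the 6 arrays alone it no longer passed the threshold.

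The remaining members differed less in ectoderm. Eng read 0.57, -0.21 and 0.62 in the cadmium arrays, against -0.11, 0.11 and 0.00 in the PBS arrays, a difference of 0.33 ± 0.30. Tie1 read 0.02, 0.22 and 0.39 in cadmium arrays, against 0.06, -0.07 and 0.00 in PBS arrays, a difference of 0.21 ± 0.23. Both genes overlapped between the groups. Cdh5 (0.21 ± 0.28), Pecam1 (0.18 ± 0.29) and Gja4 (0.16 ± 0.23) followed, and Flt1, Tek and Cd34 each had 0.08, with SEs of 0.23, 0.28 and 0.21. Flt1 separated only through narrow groups, with 0.04, 0.09 and 0.10 in cadmium arrays against -0.03, 0.02 and 0.00 in PBS arrays.

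Markers of other cells and of RNA quality are given for the same ectoderm arrays. The 13 limb mesoderm genes had a median difference of 0.14 with 10 above 0, and their mean was 0.07, 0.02 and 0.35 in cadmium arrays, against 0.11, -0.14 and 0.00 in PBS arrays. The 12 red blood cell genes had a median of 0.15 with 11 above 0, and 0 of either list passed limma's adjusted threshold. The mean of the red blood cell genes was 0.23, -0.10 and 0.67 in cadmium arrays, against 0.17, -0.26 and 0.00 in PBS arrays. The embryonic globins Hbb-y and Hba-x had differences of 1.27 ± 0.52 and 0.81 ± 0.53. The 15 ectoderm genes had a median of 0.11 with 9 above 0. Their mean was 0.17, -0.38 and 0.10 in cadmium arrays, against -0.06, 0.03 and 0.00 in PBS arrays. The 10 mural genes, of pericytes and smooth muscle, had a median of 0.08 with 9 above 0. Of all genes 57.6% lay above 0. The ratio of the 3' to the 5' probe set of Gapdh, a sign of RNA integrity, read -0.67, 1.80 and 0.44 in log2 in cadmium arrays, against -0.33, 0.42 and 0.00 in PBS arrays. That of beta-actin did not show this spread, with 0.02, 0.08 and 0.07 in cadmium arrays, against -0.23, 0.40 and 0.00 in PBS arrays. Their part in the members' values was not tested.

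At 3 h after cadmium the median of the members was near 0 in both tissues, though in ectoderm this depended on array 3. In ectoderm their median was -0.08, from -0.18 (Tie1) to 0.22 (Cdh5), and 1 of 10 lay above 0 where 46.9% of all genes did. Cdh5 read 0.09, 0.11 and 0.45 in cadmium arrays, against -0.06, 0.06 and 0.00 in PBS arrays, and was the 1 member that separated upward (5.57% of all genes), with 0 downward (3.82%). Cadmium array 3 stood apart here, with a member mean of 0.18, against -0.20 and -0.17 in cadmium arrays 1 and 2. The red blood cell mean followed the same arrays, at 0.41 in array 3, against 0.03 and -0.07 in arrays 1 and 2. Without array 3 of both groups the median of the members was -0.20. Then 7 of 10 members had the cadmium arrays left below the PBS arrays left, as did 25.3% of all genes.

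In mesoderm at 3 h after cadmium the median of the members was -0.01 and 5 of 10 lay above 0. Tek had the lowest value, with -0.22, -0.45 and -0.12 in cadmium arrays, against -0.42, 0.33 and 0.00 in PBS arrays, a difference of -0.23 ± 0.15. Cd34 had the highest at 0.08 ± 0.11. In 0 of 10 members did the arrays separate, where 5.45% of all genes separated upward and 4.18% downward. Tie1, Eng and Gja4, which led the members in mesoderm at 12 h, had differences of -0.03, 0.01 and -0.02 at 3 h.

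**Figure D3:**
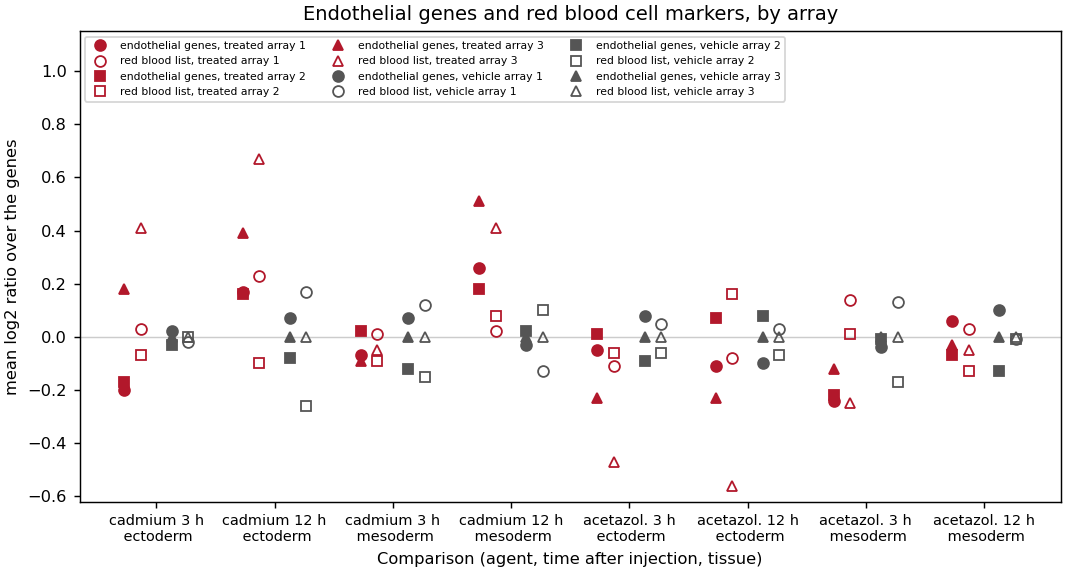
Mean log2 ratio of the 10 endothelial genes and of 12 red blood cell genes in every array, treated arrays left of vehicle arrays in each of the 8 comparisons. In mesoderm at 12 h after cadmium the member means are 0.26, 0.18 and 0.51, all above the PBS means, and in ectoderm at 3 h after acetazolamide array 3 is low in both sets, at -0.23 and -0.47.

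In mesoderm 3 h after acetazolamide most members lay below oil. Their median was -0.21, 2 of 10 (Cdh5 and Tek) lay above 0, and 43.5% of all genes did, with a median of -0.03. Other lists also lay below 0, with a median of -0.14 and 2 of 13 above 0 for limb mesoderm genes and -0.12 and 2 of 10 above 0 for mural genes, and their part in the members' values was not tested. Gja4 and Mcam had all acetazolamide arrays below all oil arrays, which held for 6.59% of all genes, and 0 members separated upward (9.33%). No member passed the adjusted threshold in limma's fit in any of the 4 acetazolamide comparisons or at 3 h after cadmium. At an unadjusted p under 0.05 stood 1 member in this comparison (Tie1), 1 in ectoderm 12 h after acetazolamide (Cdh5) and 0 in the others, where 7.36% and 7.86% of all genes did so in those comparisons. Adjusted calls over all genes in these 6 comparisons were at most 0.0364%.

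Tie1 had the lowest difference at 3 h after acetazolamide in mesoderm. It read -0.15, -0.52 and -0.56 in acetazolamide arrays, against 0.16, -0.19 and 0.00 in oil arrays, a difference of -0.40 ± 0.16. Acetazolamide array 1 lay above oil array 2, and both probe sets were below 0, at -0.43 and -0.37. Kdr read -0.75, -0.33 and -0.12 in acetazolamide arrays, against -0.34, 0.28 and 0.00 in oil arrays, a difference of -0.38 ± 0.19 with overlap.

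Gja4 read -0.14, -0.21 and -0.59 in acetazolamide arrays, against 0.04, -0.04 and 0.00 in oil arrays, a difference of -0.31 ± 0.16. Mcam read -0.17, -0.17 and -0.29, against 0.07, -0.07 and 0.00 in oil arrays, a difference of -0.21 ± 0.11. Both were separate, and both were among the genes that separated upward in mesoderm 12 h after cadmium. Eng stood at -0.31 ± 0.21, Flt1 at -0.22 ± 0.16, Pecam1 at -0.17 ± 0.20 and Cd34 at -0.10 ± 0.14. Cdh5 and Tek had 0.20 ± 0.20 and 0.14 ± 0.20. The oil arrays of Flt1 read -0.56, 0.39 and 0.00, and without oil array 2 its difference was 0.10. Without oil array 1 Pecam1 stood at 0.07 and Cd34 at 0.04, and without array 3 of both groups Tek stood at -0.02. Tie1, Eng, Gja4, Mcam and Kdr stayed below 0 whichever array was left out. The 3' to 5' log2 ratio of Gapdh differed by 0.59 and that of beta-actin by 0.52 in this comparison, and across the acetazolamide comparisons these differences ran from 0.41 to 0.59 and from 0.23 to 0.52. Their part in the members' values was not tested.

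At 12 h after acetazolamide the mesoderm members were spread about 0, with a median of 0.00 and 5 of 10 above 0. Flt1 was highest, with 0.18, 0.49 and 0.01 in acetazolamide arrays, against -0.10, 0.10 and 0.00 in oil arrays, a difference of 0.23 ± 0.16. Its 2 probe sets disagreed in size, at 0.42 and 0.04. Tek was lowest, with 0.18, -0.36 and -0.67 in acetazolamide arrays, against -0.08, 0.07 and 0.00 in oil arrays, a difference of -0.28 ± 0.20. No member separated, where 3.43% of all genes did upward and 2.48% downward.

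In ectoderm 3 h after acetazolamide the median of the members was -0.11, and 1 of 10 (Mcam, at 0.14 ± 0.11) lay above 0 beside 38.9% of all genes. With arrays centred, the median was -0.06 and 2 members changed sign. Acetazolamide array 3 was low for Tie1 (-0.38), Gja4 (-0.38), Kdr (-0.42) and Flt1 (-0.39), and its red blood cell mean was -0.47, against -0.11 and -0.06 in arrays 1 and 2. Without array 3 of both groups the median of the members was -0.02. The arrays of 0 members separated, where 9.09% of all genes separated downward and 4.76% upward.

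In ectoderm 12 h after acetazolamide Cdh5 stood out among the members. It read -0.80, -0.80 and -0.55 in acetazolamide arrays, against -0.46, 0.35 and 0.00 in oil arrays. The difference was -0.68 ± 0.24 (95% interval -1.17 to -0.19), a ratio 0.625 times that of oil, and it ran from -0.89 to -0.43 as single arrays were left out. Cd34 was the other member without overlap, at -0.12 ± 0.18, and downward separation held for 8.31% of all genes, with 0 members upward (8.48%). Eng read 0.25, 0.82 and -0.42 in acetazolamide arrays, against -0.21, 0.18 and 0.00 in oil arrays, and its difference of 0.23 ± 0.26 became -0.03 without acetazolamide array 2. The median of the members was -0.05, with 5 of 10 above 0.

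Across the 8 comparisons the members did not share 1 order. Tie1, Eng, Gja4, Cdh5 and Cd34 had their highest difference in mesoderm 12 h after cadmium, and Mcam and Pecam1 had theirs in ectoderm 12 h after cadmium. Kdr and Flt1 were highest in mesoderm 12 h after acetazolamide, and Tek in mesoderm 3 h after acetazolamide. Tie1, Eng, Gja4, Mcam, Kdr and Flt1 were lowest in mesoderm 3 h after acetazolamide. For Kdr, Flt1, Pecam1, Tek and Cd34 the 95% interval of the difference included 0 in all 8 comparisons. Over all genes, the share whose interval left out 0 ran from 0.788% to 13.8% by comparison. Members were chosen on these same ratios, and nothing is read from these intervals.

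Other genes of endothelium were measured for 43 of 55 listed. In mesoderm 12 h after cadmium 2 of the 43 rose (Sox7 and Vwf) and 1 fell (Vcam1) in limma's fit, where 1.05% and 1.22% of all genes did. The median of the 43 was 0.07 and 27 lay above 0. Vwf, encoding von Willebrand factor of endothelium and platelets, read 0.31, 0.29 and 0.80 in cadmium arrays, against 0.00 in each PBS array. It rose by 0.47 ± 0.10 in log2 (limma adjusted p = 0.00655).

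Sox7, a SoxF transcription factor of endothelium, read 0.34, 0.16 and 0.80 in cadmium arrays, against 0.09, -0.10 and 0.00 in PBS arrays. It rose by 0.43 ± 0.10 (limma adjusted p = 0.022). Vcam1, an adhesion molecule of activated endothelium and of mesenchyme, read -0.27, -0.23 and -0.88 in cadmium arrays, against -0.02, 0.01 and 0.00 in PBS arrays. It fell by 0.46 ± 0.10 (limma adjusted p = 0.00896). Sox18, the SoxF gene with the highest difference, had 0.51 ± 0.17 (limma adjusted p = 0.128), and Efnb2, an arterial ephrin with the lowest, had -0.49 ± 0.24 (limma adjusted p = 0.368).

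The ligands of these receptors were measured for 15 of 17 listed. Of these 15, 1 rose in mesoderm 12 h after cadmium, where 1.05% of all genes did. It was Vegfd, a growth factor that in mouse acts through Flt4. It read 0.48, 0.41 and 0.57 in cadmium arrays, against 0.05, -0.05 and 0.00 in PBS arrays, and rose by 0.49 ± 0.12 (limma adjusted p = 0.0242). The ligands of Kdr, Flt1 and Tek did not pass the test. Vegfa had 0.11 ± 0.12, Vegfb 0.34 ± 0.18, Vegfc -0.08 ± 0.12, Pgf -0.02 ± 0.08, Angpt1 0.08 ± 0.06 and Angpt2 0.14 ± 0.09. Tgfb1, a ligand of the endoglin receptor complex, had 0.18 ± 0.08, and Pdgfb, which endothelium releases to draw in pericytes, had -0.04 ± 0.09.

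The median of the 15 ligands was 0.11 in mesoderm, with 11 above 0, where Tgfb2 (0.35 ± 0.21) and Apln (-0.04 ± 0.09) were also near the extremes. In ectoderm 12 h after cadmium their median was 0.03 and 10 lay above 0. Angpt2, which modulates Tek, read 0.26, 0.34 and 0.96 in cadmium arrays of ectoderm, against -0.02, 0.02 and 0.00 in PBS arrays. Its difference of 0.52 ± 0.18 did not pass the test (limma adjusted p = 0.758). Vegfb had 0.43 ± 0.35 there, Vegfa 0.17 ± 0.23, Vegfc -0.12 ± 0.24 and Tgfb2 -0.13 ± 0.41.

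Red blood cell genes were measured for 12 of 16 listed, and 2 rose in mesoderm 12 h after cadmium, where 1.05% of all genes did. Alas2, the erythroid enzyme that starts haem synthesis, read 0.25, 0.34 and 0.97 in cadmium arrays, against -0.17, 0.15 and 0.00 in PBS arrays, and rose by 0.53 ± 0.12 (limma adjusted p = 0.0169). Nfe2, an erythroid and megakaryocyte factor, rose by 0.40 ± 0.11 (limma adjusted p = 0.0425). The median of the 12 was 0.14 and 10 lay above 0, and the embryonic globins Hba-x (0.13 ± 0.27) and Hbb-y (0.21 ± 0.27) did not pass.

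All 6 calls among these lists were lost without array 3 of the comparison, with limma adjusted p between 0.164 (Vegfd) and 0.474 (Nfe2). They were lost as well without precision weights (0.126 to 0.425) and in the 6 arrays alone (0.131 to 0.371). Sox7 and Vegfd were also lost without PBS array 2, at 0.0539 and 0.0672, and Nfe2 without PBS array 1 (0.145) or cadmium array 2 (0.122).

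**Figure D4:**
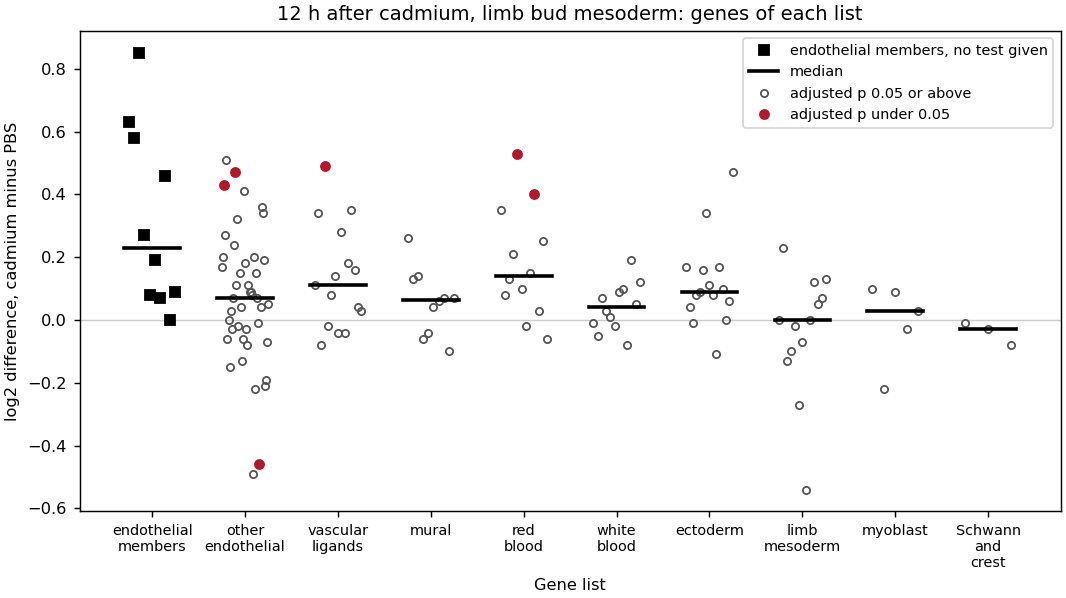
Log2 difference (cadmium minus PBS) at 12 h in mesoderm for every measured gene of the 10 lists, with a bar at each list's median, black squares for the 10 endothelial members and red points for list genes past an adjusted p of 0.05. The members' median is 0.23, against 0.07 for 43 other endothelial genes, 0.11 for 15 ligands and 0.14 for 12 red blood cell genes.

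Markers of other cells were measured in the same mesoderm comparison. Of 10 mural cell genes, which mark pericytes and smooth muscle, 0 passed, with a median of 0.06 from Mylk at -0.10 ± 0.21 to Pdgfrb at 0.26 ± 0.21. Of 12 white blood cell genes 0 passed, with a median of 0.04 from Aif1 at -0.08 ± 0.13 to Cx3cr1 at 0.19 ± 0.10. Of 15 ectoderm genes 0 passed, with a median of 0.09 and 12 above 0, from Fgf8 at -0.11 ± 0.19 to Spint1 at 0.47 ± 0.16. The 13 limb mesoderm genes had a median of 0.00, from Meox2 at -0.54 ± 0.24 to Prrx2 at 0.23 ± 0.21, and 0 passed. Over all 9 lists and 128 genes, 17 stood at an unadjusted p under 0.05, against 13.8% of all genes. The 3' to 5' log2 ratio of Gapdh differed by -0.25 and that of beta-actin by -0.07 in this comparison. Their part in the members' values was not tested.

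In the other 7 comparisons 0 of the 128 list genes passed limma's adjusted threshold, and between 2 and 11 stood at an unadjusted p under 0.05, beside 0.788% to 7.86% of all genes. In ectoderm 12 h after cadmium 35 of the 43 other endothelial genes lay above 0, with a median of 0.10 from Efnb2 at -0.52 ± 0.47 to Ece1 at 0.34 ± 0.28. There Krt19 (0.70 ± 0.30) and Trp63 (-1.0 ± 0.42) were the extremes of the ectoderm list, and Twist1 (0.88 ± 0.41) led the limb mesoderm list. In mesoderm 3 h after acetazolamide 10 of the 43 lay above 0, with a median of -0.06, and Vegfa had -0.35 ± 0.16.

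Most pairs of members varied in the same direction from array to array within treated groups, once each group's mean was removed. Treated arrays of a group do not all share an inferred denominator, so differences between vehicle arrays can enter this measure. It also uses the treated ratios that were in view when the members were picked. Over the 24 treated arrays, each taken minus its group mean, the 45 pairs of members had a median Pearson r of 0.32, and 38 of them (84.4%) lay above 0. All gene pairs had a median of 0.03, and 52.4% lay above 0. With arrays centred on their medians, the median over member pairs was 0.18 and 66.7% lay above 0, against -0.02 and 48.6% for all pairs. As deposited, Cd34 followed the mean of the other members most closely (0.70) and Pecam1 least (0.09). With arrays centred the same genes stood at 0.57 and -0.27. As the points share arrays, these are descriptions.

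Between vehicle arrays 1 and 2, over the 8 vehicle groups, the median r of member pairs was 0.15 and 29 of 45 lay above 0, against 0.04 and 53.0% for all gene pairs. With centred arrays the values were 0.09 for member pairs and -0.01 for all pairs. As deposited, the closest pairs were Tie1 with Cd34 (0.80), Tie1 with Eng (0.73) and Kdr with Flt1 (0.70). Tek went with the other members least, at -0.45 as deposited and -0.39 with arrays centred.

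Over the log2 ratios of the 24 treated arrays with group differences kept in, Tie1 followed the mean of the other members most closely (r = 0.80), then Gja4 (0.74) and Eng (0.67), and Tek least (0.16). The non-member genes most like the mean of the members were Rtn2 (r = 0.871), Prrg2 (0.86), Spef1 (0.85), Ap2a1 (0.839) and Dolpp1 (0.835). Those most opposite were Mrps2 (-0.894), Trdmt1 (-0.867), Zfp101 (-0.866), Mtmr9 (-0.854) and Hnrnpk (-0.849). None of these 10 stands in a list of vascular genes. The median r was 0.49 over the 43 other endothelial genes, 0.48 over the 15 ligands and 0.60 over the 12 red blood cell genes. It was 0.42 over 5 myoblast genes, 0.38 over the mural genes and 0.38 over the limb mesoderm genes. For ectoderm, white blood cell, and Schwann cell and crest genes it was 0.30, 0.27 and 0.26, against 0.24 over all 8242 non-member genes. This measure also uses the treated ratios that were in view when the members were picked.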

How the data were processed

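RNA of limb bud ectoderm and mesoderm was hybridised to 48 Affymetrix arrays, 3 in each of 16 groups. The authors deposited 1 ratio per probe set and array, and the labels do not say how it was made. That treated arrays 1 and 2 share the denominator of vehicle arrays 1 and 2, and treated array 3 that of vehicle array 3, is inferred from the vehicle values. The ratios carry no intensities, so how bright each probe set was cannot be given, and precision rests on having 3 arrays a group.

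All values were taken to log2. Of 12488 probe sets, 10855 named 1 gene, 396 several and 1237 none, by the platform annotation, and 10839 were matched to RefSeq by Entrez identifier. Where several of these named the same gene their mean was used (2076 genes), and 8252 genes resulted. Limma 3.58.1 in R 4.3.3 was fitted to all arrays, with 1 mean per inferred denominator, 1 agent effect per comparison and 24 residual degrees of freedom. Arrays of a comparison shared a precision weight, since the residual SD ran from 0.115 to 0.223. Within a comparison, p-values of all 8252 genes were adjusted together by Benjamini-Hochberg, and 0.05 was the threshold. The 95% half-width of a difference had a median of 0.215 to 0.418 by comparison. Each SE and 95% interval in the text is limma's from this fit. The fit was also run on simulated independent normal noise with added differences, 1 SD per comparison and no tied vehicle values. That run cannot show how calls behave in the real arrays, whose vehicle values are tied.

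The members, the gene lists and the weighting were chosen with earlier results of these data known. Genes named in the text are all members, list genes past the threshold, the main ligands, the extremes of the lists at 12 h after cadmium, and the genes most and least like the mean of the members. Cldn5 and other non-members with values at other comparisons were named after their values were seen. Alternatives were the fit without the denominator block, with array numbers as blocks, without weights, on centred arrays, on single probe sets, on 6 arrays, and without each array in turn. Separation of arrays and members' values without single arrays were added after seeing the data.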

Additional observations from a re-analysis of the deposited data

Results flagged for a closer look

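Kdr took opposite signs at the times after acetazolamide in mesoderm. Its difference from oil was -0.38 ± 0.19 at 3 h and 0.17 ± 0.20 at 12 h (SE, n = 3 each), and all 3 acetazolamide arrays lay on one side of the oil mean at each time. The acetazolamide arrays read -0.75, -0.33 and -0.12 at 3 h and 0.05, 0.37 and 0.08 at 12 h. The difference between the times was not tested. Flt1 did the same after cadmium in ectoderm on a smaller scale, with -0.06 ± 0.14 at 3 h and 0.08 ± 0.23 at 12 h, and this difference between the times was not tested either.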

How the results depend on the processing

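The median of the members kept its value to 2 decimals without weights, without the denominator block, with the replicate block and on the 6 arrays alone, and centring moved it most in ectoderm 3 h after acetazolamide, to -0.06 against -0.11. In what follows, leaving out an array 3 removed array 3 of both groups. Leaving out 1 array moved the median of the members from -0.11 (without PBS array 2) to 0.07 in mesoderm 3 h after cadmium. In mesoderm 12 h after cadmium it moved from 0.15 to 0.29. Counts of genes called by limma depended on the fit, and the cause was not tested. The replicate block gave 459 in mesoderm 12 h after cadmium (188 without it), 0 in ectoderm 12 h after cadmium (2 without it) and 5 in ectoderm 3 h after acetazolamide (2 without it). The labels do not pair arrays by number, and the difference between arrays 1 and 2 correlated above 0.1 between treated and vehicle arrays in 3 of 8 comparisons. Without weights the counts were 22 in mesoderm and 89 in ectoderm 12 h after cadmium, and 1 each in mesoderm 3 h and ectoderm 12 h after acetazolamide. On centred arrays they were 1 in ectoderm 12 h after cadmium and 8 in ectoderm 3 h after acetazolamide, and on single probe sets 1 in mesoderm 3 h after acetazolamide. On the 6 arrays alone, with fewer residual degrees of freedom, 0 passed in any comparison. Of the vascular and blood list genes, 6 were called in mesoderm 12 h after cadmium, 0 without weights, 0 on 6 arrays and 0 to 8 with 1 array left out, and 1 in ectoderm 12 h after cadmium without weights. Leaving out 1 array gave 58 to 361 genes in mesoderm 12 h after cadmium (361 without cadmium array 1), 0 to 90 in ectoderm 12 h after cadmium, 0 to 95 and 0 to 13 in ectoderm and mesoderm 3 h after cadmium, 2 to 78 and 0 to 338 in ectoderm 3 h and 12 h after acetazolamide and 0 to 141 in mesoderm 3 h after acetazolamide. It gave 0 to 1 list genes in ectoderm 12 h after cadmium and in ectoderm 3 h and 12 h after acetazolamide.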

Other observations

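In ectoderm 12 h after acetazolamide, where Cdh5 was lowest among the members, 0 of the 43 other endothelial genes passed limma's adjusted threshold and 2 stood at an unadjusted p under 0.05. Their median was -0.07 and 14 lay above 0, with Procr and Nrp1 highest at 0.47 each. Cldn5, a tight junction gene of endothelium, read -0.72, -0.46 and -0.62 in acetazolamide arrays, against 0.02, -0.02 and 0.00 in oil arrays. Its difference of -0.60 ± 0.17 did not pass the test (limma adjusted p = 0.478). Sox18 read -0.93, -0.62 and -0.43 in acetazolamide arrays, against 0.44, -0.64 and 0.00 in oil arrays, a difference of -0.59 ± 0.28 (limma adjusted p = 0.632). In mesoderm at the same time Cldn5 stood at -0.34 ± 0.14 and Sox18 at 0.10 ± 0.24.

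Efnb2, the arterial ephrin, stood at -0.46 ± 0.30 in ectoderm 3 h after cadmium and at -0.52 ± 0.47 in ectoderm 12 h after cadmium. In mesoderm it stood at 0.20 ± 0.25 at 3 h and at -0.49 ± 0.24 at 12 h after cadmium. After acetazolamide it stood at 0.60 ± 0.33 in ectoderm at 3 h, at 0.32 ± 0.40 in ectoderm at 12 h, at 0.33 ± 0.33 in mesoderm at 3 h and at 0.01 ± 0.34 in mesoderm at 12 h. None of these passed limma's test. Rasip1, which endothelium needs to open a vessel lumen, stood at 0.41 ± 0.23 in mesoderm 12 h after cadmium and at -0.73 ± 0.31 in mesoderm 3 h after acetazolamide (limma adjusted p = 0.441 and 0.596).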
